A study of Mus musculus with 10 samples.

Results

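The genes described here encode the interleukin-10 (IL-10) signalling pathway: the cytokine Il10, its receptor chains Il10ra and Il10rb, the signal transducer Stat3, and the STAT3 target genes Socs3, Bcl3 and Nfil3. These 7 genes were taken by name from the deposited gene table, which lists 17279 genes, and all 7 were found there and passed the filter on low counts that left 16949 genes for testing. The libraries were made from lamina propria macrophages of the mouse small intestine, sorted by flow cytometry as CX3CR1-GFP+ cells from the peeled mucosa 24 h after surgery. One group of 5 libraries came from mice after permanent middle cerebral artery occlusion (pMCAO), a stroke model in which the occluded brain artery is not reopened, and the other 5 came from mice after sham surgery. Both groups carried the genotype label C57BL6/J, which does not name the GFP reporter allele used for sorting, and neither age nor sex was labelled. Replicate 1 of each group is marked by its name as a pool.

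IL-10 restrains macrophages of the healthy gut, which are continually exposed to bacterial products. The cytokine binds the ligand-specific chain IL-10RA, which brings in IL-10RB, a chain shared with other cytokines of the family. The kinases JAK1 and TYK2 on these chains then phosphorylate STAT3, which enters the nucleus and switches on genes that dampen the inflammatory response. Mice that lack IL-10, or its receptor on macrophages, develop colitis.

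None of the 7 genes was called between pMCAO and sham. The cytokine Il10 had the largest difference, with a mean of 23.2 ± 18.0 CPM (SD, n = 5) after pMCAO against 53.1 ± 44.0 CPM (SD, n = 5) after sham, where CPM are read counts scaled to a common library size, and its spread within each group was wide. Il10ra was the only gene of the 7 with a higher estimate after pMCAO. Across libraries of the same group, the level of Il10 ran with that of each receptor chain and with that of Socs3, while neither receptor chain passed the test with Socs3. Il10 and Il10ra also ran with dissociation genes, and these genes and Il10rb ran with macrophage markers. None of these relations passed after adjustment without the 2 libraries that stood apart in the RNA Xist, though all kept their direction. That test had only 8 libraries and little room to pass. Leaving out both pools instead likewise left no relation between members or with dissociation genes that passed. The level of Stat3 mRNA was not seen to follow that of Socs3.

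The depth of the libraries ranged from 18894151 to 60665972 counted reads in the sham group and from 6430643 to 28672285 in the pMCAO group, so values of the pMCAO group rest on fewer reads. The lowest count behind any value of the 7 genes was 95, for Il10 in a pMCAO library. All CPM values are scaled to library sizes adjusted by the trimmed mean of M values (TMM). The 10 macrophage markers examined, among them Cx3cr1, Csf1r and the complement gene C1qa, were all detected in every library, with summed levels of 2841 to 7707 CPM in sham and 3978 to 8443 CPM in pMCAO. Other cells had left RNA in the sorted material. Jchain of plasma cells ranged from 738 to 26771 CPM over both groups, and Mcpt1 of mucosal mast cells from 191 to 9667 CPM. Summed T cell markers (10 of 10 in the table) lay between 207 and 488 CPM in both groups together. Within this sum Cd4 alone was between 93.2 and 179 CPM, whereas Cd3e was between 0.82 and 46.9 CPM. A pair of libraries differed from the rest in Xist, an RNA that female cells make from their silenced X chromosome. It reached 1756 CPM in replicate 5 of the sham group and 4461 CPM in replicate 4 of the pMCAO group, while the other 8 libraries had between 1.39 and 4.92 CPM. Estimates of the 7 genes that moved by more than 1.5 times without these 2 libraries, and the correlations that passed, are also given without them. Fold changes of other genes were not examined without these libraries.

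To place the genes on a common scale, the CPM was divided by the length of all annotated exons in kilobases. On this per-kilobase scale Socs3, which encodes the feedback inhibitor of cytokine receptors that signal through gp130, and Il10ra were the most abundant, with means over the 10 libraries of 53.6 ± 27.4 and 53.2 ± 18.3 (SD, n = 10). Il10 followed at 29.2 ± 27.0 and Il10rb at 22.6 ± 8.42. Nfil3 at 13.8 ± 9.51 and Stat3 at 13.5 ± 2.75 were close together, and Bcl3 was lowest at 9.58 ± 2.77. Several neighbours in this order could not be separated. Socs3 exceeded Il10ra in 4 of 10 libraries, Il10 exceeded Il10rb in 4 of 10, and Nfil3 exceeded Stat3 in 4 of 10. In contrast, Il10ra was above Il10 in 9 of 10 libraries, and Stat3 was above Bcl3 in 10 of 10. Stat3 was also the member with the least relative spread, whereas the SD of Il10 was nearly as large as its mean.

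**Figure D1:**
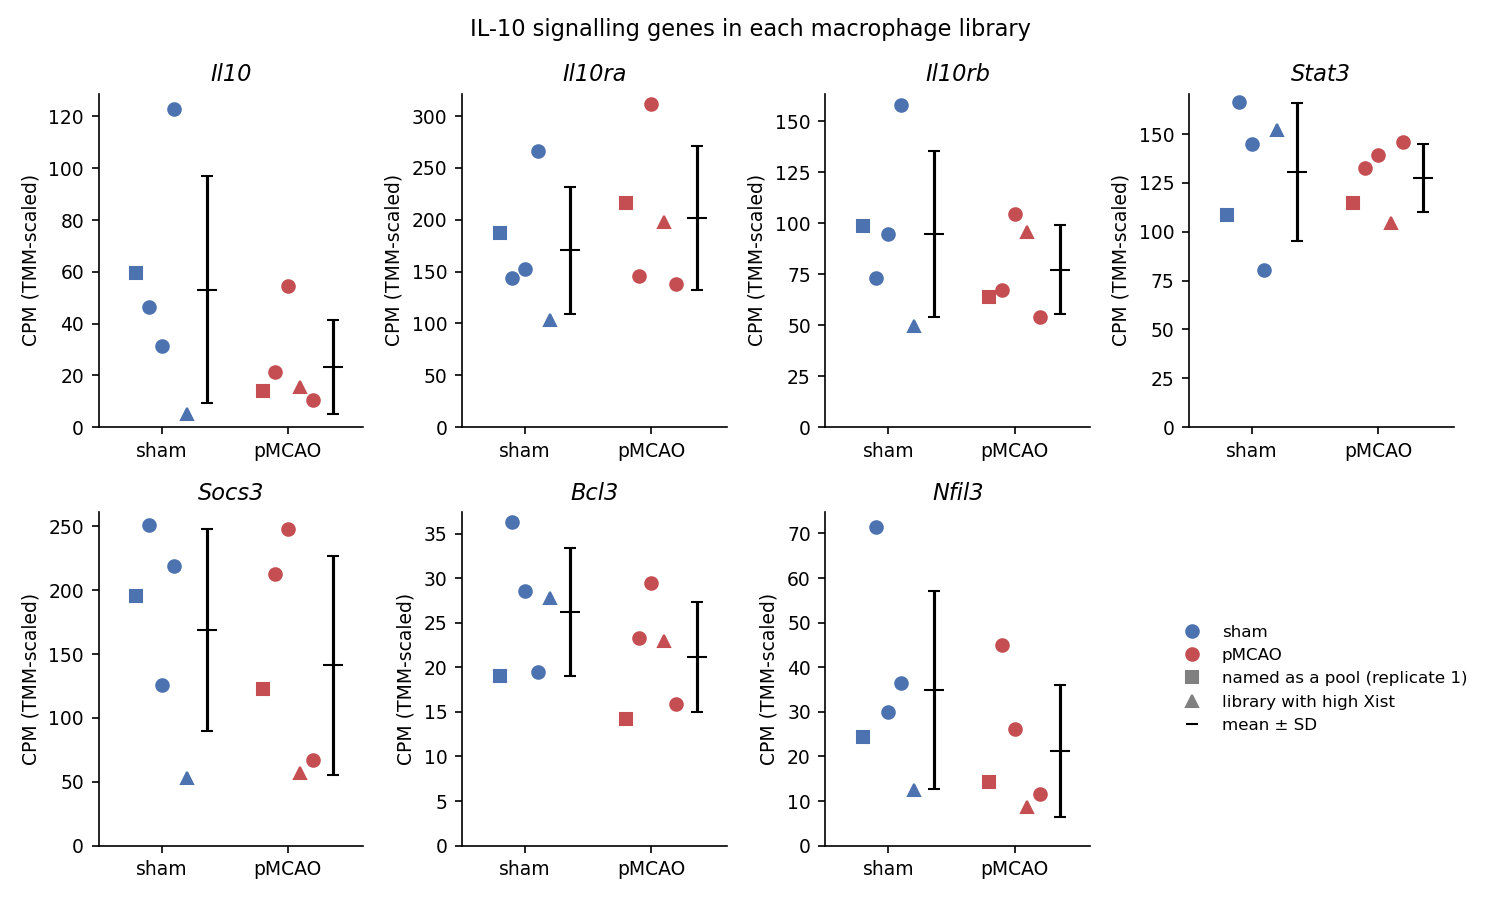
Level of each of the 7 genes in every library, as CPM on TMM-scaled library sizes (vertical axis, linear from 0), for the sham and pMCAO groups, with the mean ± SD of 5 libraries beside the points. Squares mark the libraries named as pools and triangles those with high Xist, and the points of the 2 groups overlap for all 7 genes.

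Il10, the ligand, lies on chromosome 1 from 131019845 to 131024974 (plus strand, GRCm38, GENCODE M21 annotation). The sham libraries held 59.7, 46.6, 31.4, 123 and 5.10 CPM, in the order of replicates 1 to 5. The pMCAO libraries held 13.9, 21.4, 54.7, 15.6 and 10.6 CPM. The groups overlapped at both ends, since sham replicate 5 was the lowest of all 10 libraries and pMCAO replicate 3 was above 3 of the 5 sham libraries. The fitted log2 fold change was −1.19 with an SE of 0.66 and a 95% interval from −2.62 to 0.24 (adjusted p = 0.922 by the quasi-likelihood test of edgeR with Benjamini-Hochberg adjustment over all genes tested). This interval ranges from a large decrease to a small increase. In these bulk libraries a lower level can mean fewer cells that express the gene or less RNA per cell, which cannot be told apart. The estimate was −0.64 without sham replicate 4 and −1.79 without pMCAO replicate 3, and it was −1.37 without both libraries with high Xist.

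The ligand-binding chain Il10ra (chromosome 9, 45253837 to 45269149, minus strand) was at 188, 144, 152, 266 and 104 CPM in sham replicates 1 to 5. After pMCAO it was at 216, 146, 311, 198 and 138 CPM. The pMCAO values lay within the sham range in all but replicate 3, which was above it. Its log2 fold change was 0.24 (SE 0.28, 95% interval −0.36 to 0.84, adjusted p = 0.942 by edgeR), and 0.11 without both libraries with high Xist. The shared chain Il10rb (chromosome 16, 91406164 to 91425834, plus strand) had 98.5, 73.0, 94.9, 158 and 49.4 CPM in sham. The corresponding pMCAO values were 63.8, 67.4, 105, 95.9 and 54.2 CPM. All 5 of them lay inside the sham range, and the log2 fold change was −0.30 (SE 0.29, 95% interval −0.93 to 0.33, adjusted p = 0.925 by edgeR), and −0.55 without both libraries with high Xist. An exon overlap of 569 bases with Gm21970 on the same strand leaves the counts of Il10rb uncertain to that extent.

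As the estimates of the 2 receptor chains pointed in opposite directions, their ratio was taken in each library after the values had been seen, and it is therefore given without a test. Per kilobase, Il10ra was between 1.75 and 2.29 times Il10rb in sham, with a mean of 2.02 ± 0.22 (SD, n = 5). After pMCAO the ratio was between 2.25 and 3.69, with a mean of 2.86 ± 0.61 (SD, n = 5). The pMCAO library with the lowest ratio, replicate 4 at 2.25, lay within the sham range, and it is one of those with high Xist, as is sham replicate 5, which had the highest sham ratio at 2.29.

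Stat3 (chromosome 11, 100885098 to 100939540, minus strand), which encodes the transcription factor activated by the receptor, was at 109, 166, 145, 80.5 and 152 CPM in sham. After pMCAO it was at 115, 133, 139, 104 and 146 CPM. All pMCAO values fell within the sham range, and the means of 131 ± 35.1 and 127 ± 17.4 CPM (SD, n = 5 each) differed by much less than the spread. The log2 fold change was −0.03 (SE 0.20, 95% interval −0.47 to 0.40, adjusted p = 0.989 by edgeR), an interval narrower than that of any other member, and its sign changed in 9 of 23 alternative settings, among them 0.087 without both libraries with high Xist. The mRNA says nothing of how much STAT3 was phosphorylated.

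**Figure D2:**
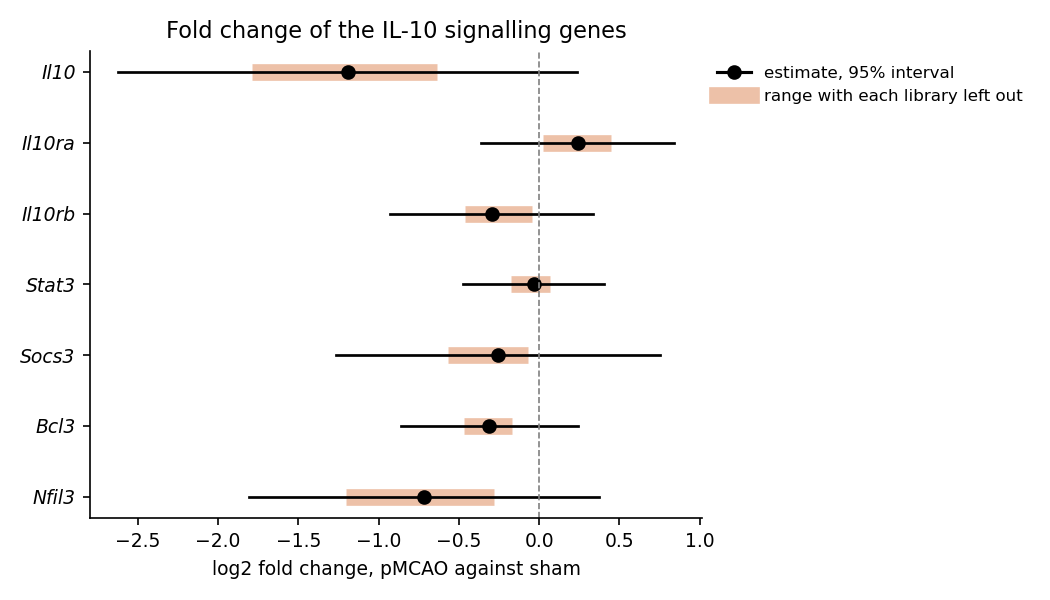
Log2 fold change of pMCAO against sham (horizontal axis) for the 7 genes from the edgeR fit, with its 95% interval (black line) and the range of estimates when each of the 10 libraries was left out in turn (orange band). All 7 intervals include 0, and the band of Stat3 crosses 0.

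Socs3 (chromosome 11, 117966079 to 117970047, minus strand) is a rapid STAT3 target whose product blocks gp130 receptors but spares the IL-10 receptor. Its sham values were 195, 251, 126, 219 and 53.0 CPM. Its pMCAO values were 123, 213, 248, 56.5 and 67.0 CPM. Both groups covered nearly the same range, and in each the library with high Xist was the lowest. The log2 fold change was −0.26 (SE 0.46, 95% interval −1.26 to 0.75, adjusted p = 0.960 by edgeR).

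Bcl3 and Nfil3 encode transcriptional regulators that IL-10 induces in macrophages, the former an atypical IκB protein acting on NF-κB sites and the latter a bZIP repressor that acts at an enhancer of Il12b. Bcl3 (chromosome 7, 19808462 to 19822770, minus strand) was at 19.1, 36.3, 28.6, 19.5 and 27.8 CPM in sham and at 14.2, 23.3, 29.4, 23.0 and 15.9 CPM after pMCAO. Replicates 1 and 5 of the pMCAO group were below every sham library, and the other 3 lay inside the sham range. The log2 fold change of Bcl3 was −0.31 (SE 0.25, 95% interval −0.86 to 0.24, adjusted p = 0.922 by edgeR). Nfil3 (chromosome 13, 52967209 to 52981073, minus strand) was at 24.3, 71.6, 29.9, 36.4 and 12.5 CPM in sham and at 14.4, 44.9, 26.1, 8.78 and 11.7 CPM after pMCAO. Replicate 2 was the highest library in both groups, and the lowest values were those of pMCAO replicates 4 and 5 and sham replicate 5. The log2 fold change of Nfil3 was −0.72 (SE 0.50, 95% interval −1.81 to 0.37, adjusted p = 0.922 by edgeR). It was −0.28 without sham replicate 2 and −1.20 without pMCAO replicate 2.

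Of the 7 genes, 0 passed an adjusted p of 0.05 in edgeR, a call made for 0% of the 16949 genes tested, with a smallest adjusted p of 0.922 over all genes. At an unadjusted p under 0.05 the count for the 7 genes was also 0, against 4.71% of all genes tested, of which 2.45% were lower and 2.26% higher after pMCAO. No gene of the 7 had groups that did not overlap, which was the case for 0.985% of all genes. DESeq2 called 0 of the 7 genes as well. Estimates were below 0 for 6 of the 7 genes, Stat3 among them, with a median log2 fold change of −0.30, beside −0.0059 over all genes tested. Shorter genes had somewhat lower estimates in this table, with a median of −0.09 in the fifth of genes with the shortest exons, which holds Il10, and 0.08 in the fifth with the longest, which holds Stat3. The part of length in the estimates of single genes was not tested.

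The members were next compared across libraries to see whether ligand, receptor, transducer and targets varied together within a group. Log2 CPM values were taken after subtracting each group's mean, and 29 relations were tested by an exact two-sided permutation within groups, with Benjamini-Hochberg adjustment over all 29. Of the 21 pairs of members, 5 passed an adjusted p of 0.05. The share of all gene pairs that would pass was not computed. No pair of members reached an r above 0.9, whereas 56 of 16948 other genes did with Il10 and 154 with Il10rb. Il10 went with Il10ra (Pearson r = 0.835, exact permutation p = 0.0053, adjusted 0.028; Spearman rho = 0.770, exact p = 0.015, adjusted 0.056). It also went with Il10rb, so that libraries rich in the ligand were rich in both chains of its receptor (r = 0.863, exact permutation p = 0.0067, adjusted 0.028; rho = 0.782, exact p = 0.013, adjusted 0.053). With Socs3 its r was 0.831 (exact permutation p = 0.0029, adjusted 0.027; rho = 0.794, exact p = 0.0062, adjusted 0.045). Socs3 was the only STAT3 target that passed with Il10. With Nfil3 the r of Il10 was 0.617 (exact permutation p = 0.075, adjusted 0.167). The rho of that pair was 0.721 (exact p = 0.025, adjusted 0.073), and r was 0.350 without both libraries with high Xist. With Bcl3 the r of Il10 was 0.030. The receptor chains went with each other at r = 0.887 (exact permutation p = 0.0037, adjusted 0.027; rho = 0.879, exact p = 0.0048, adjusted 0.045). Socs3 and Nfil3, both STAT3 targets, had r = 0.885 (exact permutation p = 0.0027, adjusted 0.027; rho = 0.927, exact p = 0.0016, adjusted 0.023).

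Sham replicates 4 and 5 were the libraries farthest from the median of Il10, the former high and the latter low. Without them r was 0.740 for Il10 with Il10ra, 0.647 with Il10rb and 0.777 with Socs3. The receptor chains had r = 0.800 without sham replicate 5 and pMCAO replicate 3, and Socs3 with Nfil3 had r = 0.772 without both libraries with high Xist. Without both libraries with high Xist, Il10 had r = 0.832 with Il10ra, 0.885 with Il10rb and 0.771 with Socs3, and the receptor chains had 0.887. These correlations kept their direction, but with 8 libraries, either without those with high Xist or without the pools, 0 of the 29 relations passed the adjusted threshold. With 8 libraries the permutation has 576 arrangements, against 14400 with 10, so no relation could pass alone after adjustment over 29. A count of 0 there cannot tell a weaker correlation from fewer libraries. The receptor chains themselves had an r of 0.570 (Il10ra) and 0.493 (Il10rb) with Socs3 (exact permutation p = 0.111 and 0.168, adjusted 0.215 and 0.286; rho = 0.467 and 0.430, exact p = 0.192 and 0.230, adjusted 0.347 and 0.370), and −0.015 and 0.117 without the 2 libraries farthest from the median of each chain.

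Stat3 passed with no other member. Its r was −0.108 with Socs3 (exact permutation p = 0.790, adjusted 0.881; rho = −0.091, exact p = 0.810, adjusted 0.874). STAT3 protein, the direct activator of Socs3, was not measured. With both receptor chains the r of Stat3 was negative, at −0.638 for Il10ra (exact permutation p = 0.065, adjusted 0.157; rho = −0.721, exact p = 0.037, adjusted 0.090) and −0.715 for Il10rb (exact permutation p = 0.048, adjusted 0.128; rho = −0.770, exact p = 0.021, adjusted 0.067). Without the 2 libraries farthest from the median of each chain these were −0.935 and −0.434. With the target Bcl3 it was positive, at 0.584 (exact permutation p = 0.086, adjusted 0.178; rho = 0.406, exact p = 0.232, adjusted 0.370), and 0.695 without sham replicate 4 and pMCAO replicate 4. Bcl3 passed with no other member either. By r that relation to Stat3 was its largest, followed by Nfil3 at 0.406 (exact permutation p = 0.272, adjusted 0.416). By rho Nfil3 (0.491, exact p = 0.186, adjusted 0.347) and Socs3 (0.418) were above Stat3. Without both libraries with high Xist the r of Bcl3 was 0.754 with Nfil3 and 0.685 with Stat3. Its r to Il10 was 0.030 (exact permutation p = 0.939, adjusted 0.952), and 0.518 without sham replicates 4 and 5. The rho of Bcl3 to Il10 was 0.224 (exact p = 0.535, adjusted 0.646).

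**Figure D3:**
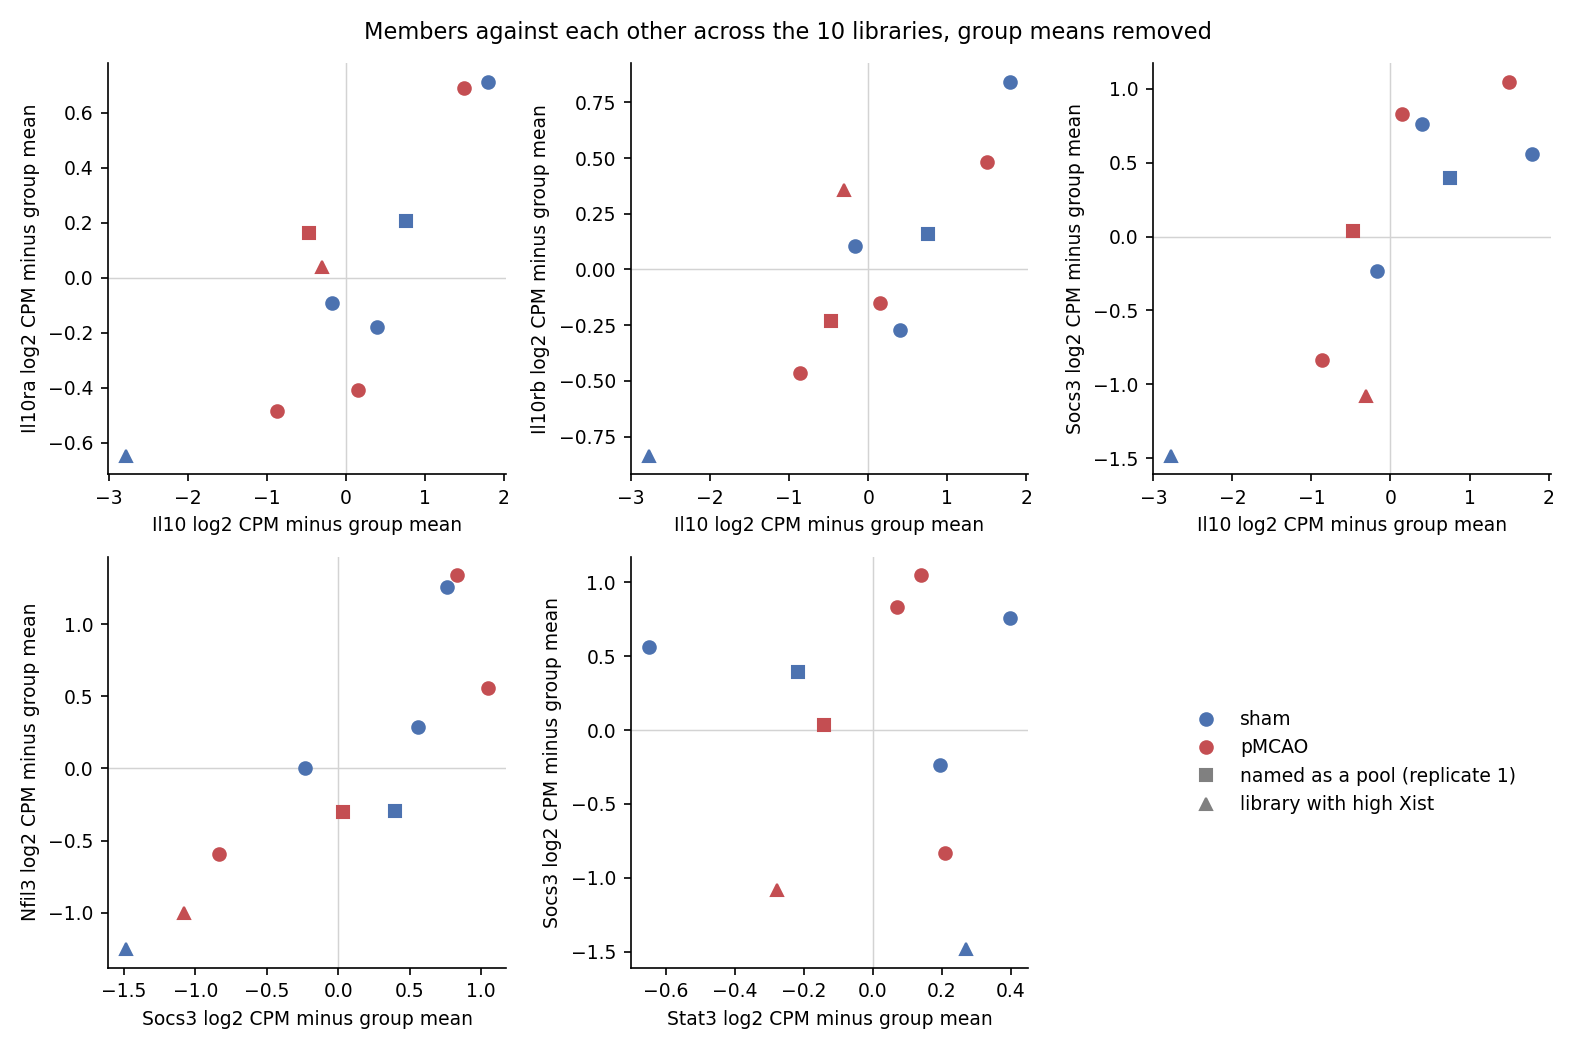
Log2 CPM minus the group mean for 5 pairs of members, 1 point per library (5 sham, 5 pMCAO), with squares for the pools and triangles for the libraries with high Xist. Il10 rises with Il10ra, Il10rb and Socs3, and Socs3 with Nfil3, whereas Stat3 and Socs3 (r = −0.108) show no common order, and sham replicate 5 is at the low end of the first 4 panels.

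The upstream DNA of Socs3 and Nfil3 is shown because these targets had the closest correlation of any pair of targets. RefSeq promoters on GRCm38.p6 were matched for 4 of the 7 members, and the 250 bases before the annotated start were searched on both strands for the STAT site TTCNNNGAA, which 7.02% of the 32851 promoters hold. Among the 4, Socs3 had 1 match, TTCTTAGAA, from position −154 to −146 before the start (chromosome 11, 117969512 to 117969520), and Nfil3, Stat3 and Bcl3 had 0. Each window is printed 5′ to 3′ on the minus strand, as far as it lies outside annotated exons, with a match to the STAT site in capitals; the stretch of Socs3 lies in an intron of a longer non-coding transcript of that gene.
Socs3, chr11:117969452-117969616: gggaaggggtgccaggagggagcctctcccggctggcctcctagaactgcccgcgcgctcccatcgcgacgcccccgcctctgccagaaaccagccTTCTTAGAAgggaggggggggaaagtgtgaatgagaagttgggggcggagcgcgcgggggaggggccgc
Nfil3, chr13:52981074-52981289: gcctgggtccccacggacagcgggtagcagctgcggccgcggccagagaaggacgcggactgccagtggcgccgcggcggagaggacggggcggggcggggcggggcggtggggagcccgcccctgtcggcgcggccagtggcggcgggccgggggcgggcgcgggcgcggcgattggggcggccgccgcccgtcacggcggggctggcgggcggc
Both windows were rich in G and C, at 71.6% for Socs3 and 81.6% for Nfil3 over the 250 bases. A match describes letters only, and no binding was measured.

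The members were also set against marker levels, which bear on the purity and handling of the sorted cells. Il10 had r = 0.842 with the mean log2 CPM of 10 genes induced when tissue is dissociated (exact permutation p = 0.0058, adjusted 0.028 over the 29 relations; rho = 0.879, exact p = 0.0012, adjusted 0.023). Il10ra had r = 0.869 with the same genes (exact permutation p = 0.0033, adjusted 0.027; rho = 0.830, exact p = 0.0092, adjusted 0.047). Without the 2 libraries farthest from the median of each gene these values were 0.941 and 0.755, and without both libraries with high Xist 0.945 and 0.868. Socs3 passed with these genes by rho but not by r (r = 0.716, exact permutation p = 0.031, adjusted 0.089; rho = 0.758, exact p = 0.0097, adjusted 0.047), and its r was 0.674 without the libraries with high Xist, which are also the 2 farthest for Socs3. The summed level of the dissociation genes was between 3814 and 12090 CPM in sham and between 5260 and 9334 CPM after pMCAO, and it was highest in sham replicate 4 and lowest in sham replicate 5, the libraries with the most and the least Il10.

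The levels of the macrophage markers and of granulocyte and mast cell markers were added to these comparisons after the data had been seen, as a separate family of 14 relations. Il10rb followed the macrophage markers most closely (r = 0.922, exact permutation p = 0.00028, adjusted 0.0039; rho = 0.952, exact p = 0.00028, adjusted 0.0039), and r was 0.930 without sham replicates 4 and 5. For Il10ra r was 0.832 (exact permutation p = 0.0046, adjusted 0.020; rho = 0.939, exact p = 0.00063, adjusted 0.0044), and 0.729 without its 2 farthest libraries. For Il10 r was 0.830 (exact permutation p = 0.0091, adjusted 0.025; rho = 0.782, exact p = 0.012, adjusted 0.032), and 0.534 without sham replicates 4 and 5. Stat3 ran the other way and passed by rho alone (r = −0.631, exact permutation p = 0.101, adjusted 0.176; rho = −0.806, exact p = 0.021, adjusted 0.049), with r = −0.524 without sham replicate 4 and pMCAO replicate 4. Against granulocyte and mast cell markers the same 3 genes ran in the opposite direction, with r = −0.798 for Il10 (exact permutation p = 0.0058, adjusted 0.020), −0.781 for Il10ra (exact p = 0.015, adjusted 0.034) and −0.855 for Il10rb (exact p = 0.0028, adjusted 0.019). Their rho values were −0.770, −0.636 and −0.830 (exact p = 0.011, 0.061 and 0.0059, adjusted 0.032, 0.122 and 0.028), and without the 2 farthest libraries r was −0.783, −0.515 and −0.780. Without both libraries with high Xist, 0 of these 14 relations passed, with r to the macrophage markers of 0.705 for Il10, 0.827 for Il10ra, 0.850 for Il10rb and −0.564 for Stat3, and r to the granulocyte and mast cell markers of −0.885, −0.727 and −0.840 for Il10, Il10ra and Il10rb.

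**Figure D4:**
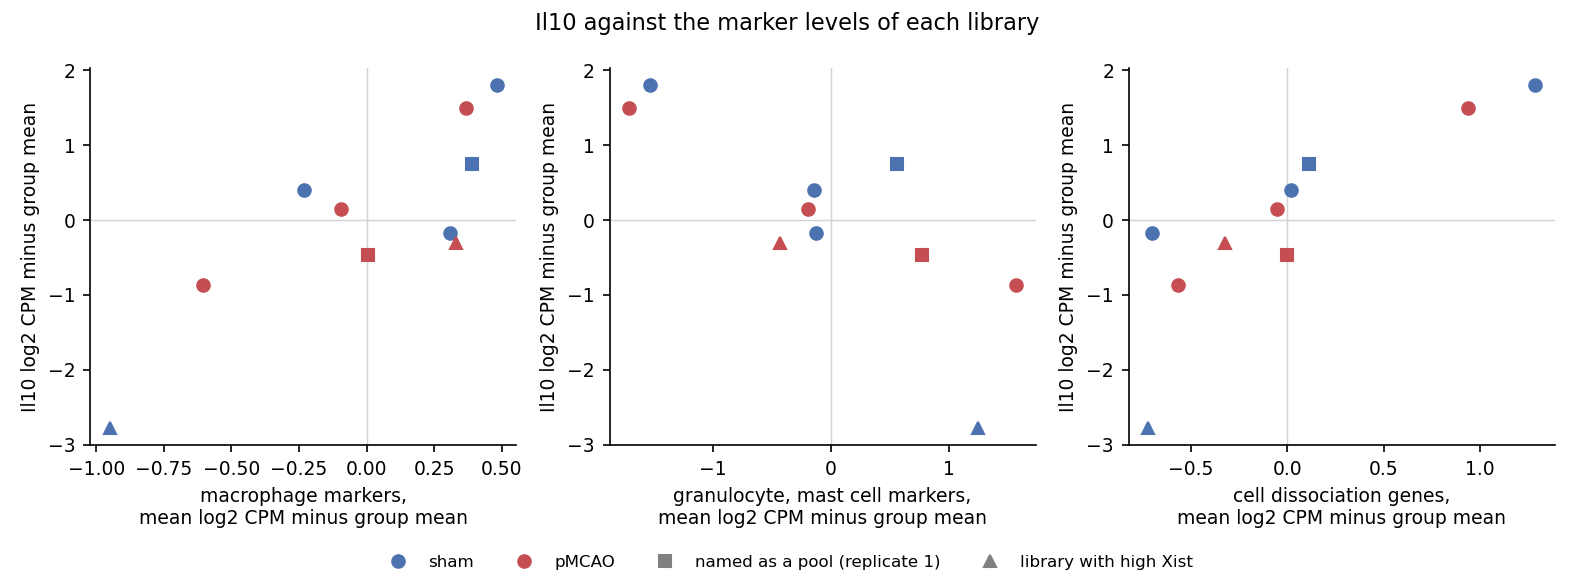
Il10 in log2 CPM minus the group mean (vertical axis) against the mean log2 CPM of 10 macrophage markers, of the 3 tested granulocyte and mast cell markers and of 10 cell dissociation genes, each minus its group mean (horizontal axes), 1 point per library. Il10 is higher where macrophage markers (r = 0.830) and dissociation genes (r = 0.842) are higher and where granulocyte and mast cell markers are lower (r = −0.798), with sham replicate 5 at one end and sham replicate 4 and pMCAO replicate 3 at the other.

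Sham replicate 5 thus combined the lowest Il10, Il10ra, Il10rb and Socs3 of all libraries with the lowest summed macrophage markers (2841 CPM) and the highest summed granulocyte and mast cell markers (10471 CPM). Of the latter list 4 of 7 genes were in the table, and nearly all of its sum was Mcpt1, a mast cell protease, and Cpa3, mast cell carboxypeptidase A. Its sum ranged from 1155 to 10471 CPM in sham and from 247 to 3463 CPM after pMCAO, and the neutrophil gene S100a8 was between 0 and 6.23 CPM. S100a8 did not pass the filter, so the correlations used the mean log2 CPM of the 3 tested genes, Mcpt1, Cpa3 and Siglecf. Siglecf was scarce, at a mean of 5.92 CPM in sham and 5.42 CPM after pMCAO, but had the same weight as the others. Mcpt1 itself had a log2 fold change of −1.86 (SE 0.68, unadjusted p = 0.018 and adjusted p = 0.922 by edgeR), the same direction as Il10. With the macrophage marker level as a covariate in the fit, also added after the data had been seen, the log2 fold change of Il10 was −1.21 (SE 0.42, unadjusted p = 0.014, adjusted p = 0.867 by edgeR), and with the level of the dissociation genes it was −0.86 (SE 0.38, unadjusted p = 0.044, adjusted p = 0.773 by edgeR). In the fit with the macrophage marker level Il10rb was at −0.38 (SE 0.16, unadjusted p = 0.034, adjusted p = 0.867 by edgeR). No fit used the level of the mast cell or T cell markers. The parts that cell composition and handling may have in the levels of these genes were not tested.

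T cells are another source of Il10 in the gut. Il10 and the T cell markers ran in opposite directions over the libraries (r = −0.817, exact permutation p = 0.016, adjusted 0.059; rho = −0.721, exact p = 0.028, adjusted 0.075), with r = −0.832 without sham replicates 4 and 5 and −0.913 without both libraries with high Xist. Of 10 T cell markers 8 had estimates below 0 after pMCAO, with a median of −0.61 and 0 called. The 2 above 0 were Ctla4 (log2 fold change 0.36, SE 0.70) and Foxp3 (0.27, SE 0.96). The gene with the smallest p was Cd2, an adhesion receptor of T cells, at 18.1 ± 9.75 CPM in sham and 8.97 ± 7.21 CPM after pMCAO (SD, n = 5 each).

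The genes whose levels ran closest to each member over the 10 libraries, with group means removed, were listed as a description. Il10 was closest to Ier3, an immediate early response gene (r = 0.976), Tceb1 (0.973) and Csnk1e (0.963). Il10ra was closest to Epor (0.980), Fgd2 (0.978) and 5031425F14Rik (0.975), and Il10rb to Pf4 (0.992), Hfe (0.982) and Neurl1a (0.981). Pf4 encodes a chemokine that tissue macrophages also express. The closest genes to Stat3 were Ak8 (0.964), Ptpn7 (0.963) and B4galnt1 (0.961), those to Socs3 were Hspb11 (0.970), Cdk2ap2 (0.942) and Chmp4b (0.942), those to Bcl3 were Erlin1 (0.955), Gm830 (0.936) and Gm12184 (0.931), and those to Nfil3 were Spty2d1 (0.973), Slc35e3 (0.933) and Eif3a (0.929). No other member was among the 3 closest genes of any member. Out of 16948 genes compared, an r above 0.9 was reached by 154 genes for Il10rb, 138 for Il10ra and 56 for Il10. For Stat3, Socs3, Nfil3 and Bcl3 these were 41, 25, 12 and 10 genes. Many genes thus shared the pattern of Il10 and of the receptor chains.

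The other genes of the pathway gave 0 called genes in every list. Of the 6 receptor kinases and further STATs, 4 were lower and 2 higher after pMCAO, with a median log2 fold change of −0.06. Jak1, the kinase bound to IL-10RA, was at 327 ± 50.9 CPM in sham and 311 ± 29.4 CPM after pMCAO (SD, n = 5 each), and Tyk2, bound to IL-10RB, at 59.6 ± 9.06 and 60.9 ± 7.16 CPM. The gene of this list with the smallest p was Stat5a, with a log2 fold change of −0.39 (SE 0.30, adjusted p = 0.922 by edgeR). It shares 72 exon bases with Stat3 on the opposite strand, and whether reads were counted by strand is not given in the sources used here. The same holds for 161 exon bases that Bcl3 shares with the antisense gene Gm16175.

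Among 8 negative regulators of JAK and STAT3 signalling, 5 were lower and 3 higher, with a median of −0.21. The smallest p was that of Ptpn6, encoding the phosphatase SHP-1, at 165 ± 13.4 CPM in sham and 136 ± 18.5 CPM after pMCAO (SD, n = 5 each; log2 fold change −0.28, SE 0.14, adjusted p = 0.922 by edgeR). Socs1, the other strong JAK inhibitor of the SOCS family, was scarce, at 1.19 ± 0.53 CPM in sham and 1.94 ± 1.08 CPM after pMCAO.

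Of 6 other cytokines of the IL-10 family 0 were among the genes in the table. Of 5 other receptor chains of the family 4 were tested, 2 lower and 2 higher, with a median of −0.05. Il22ra2, which encodes the soluble IL-22 binding protein, had the largest SD in CPM of this list, at 34.2 ± 31.7 CPM in sham and 44.5 ± 50.3 CPM after pMCAO (SD, n = 5 each), and the smallest p in this list was that of Ifnlr1, the interferon lambda receptor (log2 fold change −1.05, SE 0.67, adjusted p = 0.922 by edgeR). Of 7 receptor genes of other cytokines that act through STAT3, 5 were tested, since Osmr was not listed and Lepr did not pass the filter. Il6st, encoding gp130, was at 185 ± 33.6 CPM in sham and 174 ± 29.1 CPM after pMCAO, and Il6ra, the gene of the 5 tested with the smallest p, had 209 ± 41.1 and 251 ± 50.3 CPM (log2 fold change 0.26, SE 0.19, adjusted p = 0.922 by edgeR). The list had 2 lower and 3 higher genes and a median of 0.03.

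Transcription factors known to regulate Il10 in myeloid or T cells, 10 in all, were split into 4 lower and 6 higher, with a median of 0.04. Maf, the factor c-MAF that binds the Il10 promoter, was at 351 ± 198 CPM in sham and 423 ± 261 CPM after pMCAO (SD, n = 5 each). The smallest p was that of Cebpb, which encodes C/EBPβ, with a log2 fold change of −0.80 (SE 0.52, adjusted p = 0.922 by edgeR).

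Of 9 further genes that IL-10 induces in macrophages, 6 were lower and 3 higher, with a median of −0.06. Il1rn, which encodes the interleukin-1 receptor antagonist, was at 59.1 ± 26.3 CPM in sham and 35.1 ± 9.05 CPM after pMCAO (SD, n = 5 each; log2 fold change −0.75, SE 0.31, adjusted p = 0.922 by edgeR). It was the only gene of these 7 lists (those with tested genes) with an unadjusted p under 0.05 (0.033 by edgeR). Ddit4, an inhibitor of mTORC1, had the opposite sign, at 15.5 ± 8.99 and 32.2 ± 23.8 CPM (log2 fold change 1.05, SE 0.54, adjusted p = 0.922 by edgeR). Of the 10 tested inflammatory genes that IL-10 represses, 0 were called, 8 had estimates below 0 and 2 above it, with a median of −0.46. The 2 above 0 were the subunits of interleukin-12, Il12b (log2 fold change 0.62, SE 0.78) and Il12a (0.30, SE 1.44). Both were scarce, with means of 1.03 CPM in sham and 1.62 CPM after pMCAO for Il12b and 0.70 and 0.83 CPM for Il12a. The smallest p was that of Cxcl10, an interferon-induced chemokine, at 74.5 ± 37.6 CPM in sham and 41.2 ± 20.3 CPM after pMCAO (log2 fold change −0.86, SE 0.40, adjusted p = 0.922 by edgeR), and Il1b was at 975.3 ± 969.9 and 486 ± 402 CPM (SD, n = 5 each). Tnf differed little, at 27.4 ± 11.4 and 24.3 ± 6.85 CPM.

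**Figure D5:**
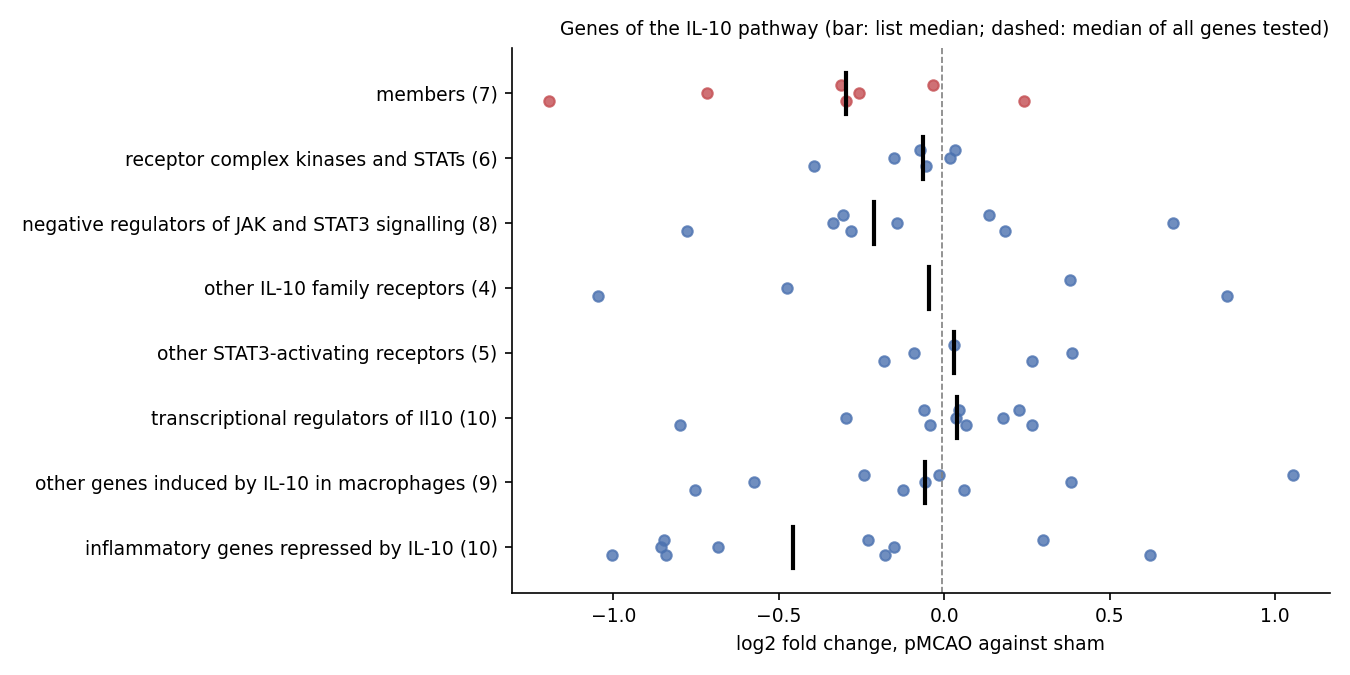
Log2 fold change of pMCAO against sham (horizontal axis) for the 7 members and the tested genes of 7 pathway lists, 1 point per gene, with a bar at each list's median and a dashed line at the median of all genes tested (−0.0059). The medians of the members (−0.30) and of the inflammatory genes (−0.46) are the lowest of the 8 rows, and 0 of the genes drawn were called.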

How the data were processed

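RNA sequencing was analysed for 10 libraries, 5 sham and 5 pMCAO, grouped by the treatment label. Per the labels, 2 ng of total RNA went into Trio RNA-seq libraries after cleavage of ribosomal RNA and was read as 100 bp paired ends. The submitters' processing notes name STAR, featureCounts, limma and the build GRCm38/mm10; versions and strandedness are not given in the sources used here. The authors deposited unnormalized whole-number counts per gene. The deposited table also holds the authors' CPM, scaled to the total of listed genes, and their own comparison columns (fold changes, p-values), which were not used.

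Counts were filtered with filterByExpr, scaled by TMM and compared without covariates in edgeR 4.0.16 (quasi-likelihood test; R 4.3.3), with 95% intervals from its degrees of freedom. Genes were called at an adjusted p of at most 0.05. In simulated counts edgeR called 4 of 97 genes changed by a log2 fold of 1 and 38 of 92 changed by 2. It made 0 false calls there, while DESeq2 made 34. A gene that was not called may therefore still differ by 2-fold or more. Log2 CPM used a prior count of 2. Alternatives were DESeq2 1.42.0, limma-voom with and without quality weights (limma 3.58.1), other normalizations and filters, a replicate block, 1 surrogate variable (sva 3.50.0), and leaving out libraries. The members and lists were chosen with earlier results of these data known. Beside the members, the genes named are those with the smallest p in each pathway list, the 3 genes most like each member, and genes singled out after their values were seen (Jak1, Tyk2, Socs1, Il22ra2, Il6st, Maf, Ddit4, Il1b, Tnf, Il12a, Il12b and marker genes). Exon lengths are GENCODE M21 and were found for 16864 tested genes. Over 12094 genes the closest pair of libraries still had a chi-square of 44.9 for each degree of freedom, so none repeats another.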

Additional observations from a re-analysis of the deposited data

Results flagged for a closer look

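Libraries of 5 were examined in 44 groups for a library whose gap to its nearest neighbour exceeded 0.71 of the group's range. This held for 4 of the 44, where chance alone gives about 1 in 20, and several of the measures share genes or libraries. None of the 4 concerned a single member. The mean log2 CPM of the negative regulators of JAK and STAT3 signalling was set apart on the low side in 2 libraries, sham replicate 4 (a gap of 0.723) and pMCAO replicate 4 (0.711). The transcriptional regulators of Il10 were lowest in pMCAO replicate 3 (gap 0.740), which had the most Il10 of the pMCAO libraries. Stromal and endothelial genes were lowest in the same library (gap 0.756).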

How the results depend on the processing

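Across 23 alternatives edgeR, DESeq2 and limma called 0 of the 7 members, and the sign of 6 members did not change in any of them. Stat3 changed sign in 9, with log2 fold changes of 0.0022 under limma-voom, 0.0018 with the replicate block, 0.074 with 1 surrogate variable, 0.087 without both libraries with high Xist, 0.037 with the macrophage marker level as a covariate (added after the data were seen), and a range of −0.175 to 0.068 with each library left out. The other estimates ranged from −1.79 to −0.64 for Il10, 0.03 to 0.45 for Il10ra, −0.55 to −0.04 for Il10rb, −0.57 to −0.07 for Socs3, −0.53 to −0.17 for Bcl3 and −1.20 to −0.28 for Nfil3. The unadjusted p of Il10 was under 0.05 in 6 of the 23 (from 0.014 to 0.376 over all), with an adjusted p of 0.533 or more. Over all genes, edgeR and limma called 0 in every alternative and DESeq2 called 3. Same-numbered libraries deviated together unevenly (r from −0.0055 to 0.372, mean 0.197). Of 10 libraries 5 correlated best with their own number, more than an even spread over the other group would give. The labels name no pairs, so the main fit took none, and whether the numbers mark a shared batch was not tested. With the replicate block 0 genes were called (smallest adjusted p 0.173 by edgeR, against 0.922 without it). An unadjusted p under 0.05 was then reached by 1303 genes, against 799 without the block. Nfil3 was among them (log2 fold change −0.73, SE 0.28, unadjusted p = 0.031, adjusted p = 0.637 by edgeR). Of the 29 relations 7 passed; by Spearman's rho 6 did, with Socs3 and the dissociation genes added and Il10 with either receptor chain lost. Without both libraries with high Xist 0 of the 29 passed, and without both pools 0, each with 8 libraries. With 8 libraries the permutation has 576 arrangements instead of 14400, so no relation could pass alone after adjustment. In the shallowest library, pMCAO replicate 1, the values of Il10, Bcl3 and Nfil3 rest on 95, 97 and 98 reads.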
